A study of Drosophila melanogaster with 6 samples.

Results

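The regions described here are Dwg ChIP-seq summits that lay at head-to-head gene starts, where a pair of protein-coding genes on opposite strands point away from each other and share a short upstream region. A summit is the single base of highest enrichment within a peak. A summit was taken when it lay between the starts of such a pair, or up to 50 bp outside them, with the starts at most 500 bp apart and any annotated transcript start allowed. By this rule 589 of the 10950 summits of the list called against the IgG control were members, which is 5.38% (95% Wilson interval 4.97 to 5.82). The rule used positions only, with no limit on score or sequence.

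The study asked where Dwg binds the genome of S2R+ cells, a line of Drosophila melanogaster embryonic origin, that expressed Flag-tagged Dwg. The groups were 2 libraries of the anti-Flag immunoprecipitate, 2 libraries of the IgG control immunoprecipitate and 2 input libraries, with both immunoprecipitates from Flag-Dwg expressing cells and no Flag-negative cells among the samples. The input libraries are titled as input although their antibody label reads dwg1. Peaks of the anti-Flag libraries were called once against the IgG control and once against input, and each call gave 1 list of summits with no value per library, so replicate error and depth are unknown and the intervals printed here cover counting of summits or genes only. The labels do not say whether the tagged protein was present at the level of the endogenous one, and the endogenous protein was not assayed.

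Dwg, also known as Zw5, is a zinc-finger protein first described as the factor that binds scs, an insulator element at the heat shock locus of Drosophila. Insulators limit the reach of enhancers and of chromatin states, and in flies many insulator proteins sit close to gene starts. Head-to-head genes are common in the compact fly genome and are often broadly expressed housekeeping genes. BEAF-32, a different insulator protein, binds clusters of the word CGATA at the companion element scs', which lies between the head-to-head genes CG3281 and aurA.

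Most of the highest-scoring members shared a short sequence that the rule did not use. The score of a summit is the −log10 of its q-value against the IgG control. Of the 20 highest-scoring members, 16 (80.0%, 58.4 to 91.9) had the 6-letter word CCATTC, on either strand, within 50 bp of the summit, against 68 of all 589 members (11.5%, 9.21 to 14.4). Of the 20 highest summits within 50 bp of other gene starts 10 had it (29.9% to 70.1%), and of the 20 highest of all other summits 12 (38.7% to 78.1%). Among the 100 highest of each class it was in 37 members, 31 other start summits and 35 of all other summits. The word was thus not particular to members. All other summits are those that are not members, so they include the other start summits. The lowest scores among these 100 were 156, 191 and 313, so the classes were not compared at equal scores. The word was singled out for its difference in share between high- and low-scoring members, which raises its share among high-scoring members. The sites of 10 of these 16 summits are shown, each 30 bases long, read 5′ to 3′ on the strand that carries the word and named by the gene pair, with the word in capitals; they were taken from the dm6 assembly to let the bases around the word be compared.
Mst36Fa and CG31751 (chr2L:18677190-18677219, plus strand): cagcagctctagCCATTCgcatgtcaacgc
Charon and CG4887 (chr2L:1172751-1172780, minus strand): tgccgctacttgCCATTCcgtgcagcgtgt
mRpS14 and Naa15-16 (chrX:19480218-19480247, plus strand): caattgctgttaCCATTCgccgcgaagcgc
Ugt316A1 and Sfxn2 (chr3L:19062796-19062825, minus strand): catctctgaatgCCATTCgcaggagacgac
SC35 and eRF3 (chr2L:12434783-12434812, plus strand): gcattgcttttgCCATTCccaatttccatt
CG14693 and TTLL15 (chr3R:10815256-10815285, minus strand): atttcccgtttgCCATTCaaagtgaagcgc
Gen and Srp54k (chr3L:5152661-5152690, minus strand): gctgaccactggCCATTCgcagcggtcgct
CG10383 and CG10338 (chr2L:18695448-18695477, plus strand): tgtcagctgttgCCATTCgcagcgagacca
Fitm and AlaRS-m (chr3L:5146095-5146124, minus strand): tcacatggcttgCCATTCgccacgaaaccc
Arp3 and msk (chr3L:8115944-8115973, minus strand): cccgataaattgCCATTCaagttgcatggc

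Some of the bases next to the word were also alike among strong members. For the words, the members were ranked by score and split into 4 score bins of 147 or 148 members, and flanking bases were read on 5 of the 6 chromosome arms, which gave 37 sites in the top score bin. In 29 of these 37 sites (78.4%) the base 3 positions before the word was T, in 26 (70.3%) the base 2 positions before it was T, and in 28 (75.7%) the base just before it was G. After the word, the base 2 positions on was C in 29 sites (78.4%) and the base 3 positions on was A in 23 (62.2%). The same bases were the most frequent in the top score bin of summits within 50 bp of other gene starts. Their shares there, in the same order, were 48.5%, 48.5%, 57.6%, 72.7% and 45.5% of 33 sites, so these bases were not particular to members. The extended word TTGCCATTC was read in 18 of the 37 sites (48.6%, 33.4 to 64.1), against 7 of 33 (21.2%, 10.7 to 37.8) in the top score bin of summits within 50 bp of other gene starts and 7 of 126 (5.56%, 2.72 to 11.0) at starts of head-to-head pairs without a summit. Among the 18 sites of members in the lower 3 score bins it was read in 1. The 126 sites at pairs without a summit exceed the 97 of 2603 start windows of such pairs that had CCATTC. Sites and windows were thus not counted alike, and the 2 counts should not be set side by side. The intervals of the strong members and the other strong start summits overlap, and the positions were named after their values were seen.

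The whole space between the starts is shown for a pair of these loci, because summit, start and word fall close together in it. Capitals mark CCATTC, the BEAF-32 word CGATA and the E-box-like palindrome CAGCTG, or their reverse complements, and both runs are on the plus strand.
Mst36Fa and CG31751 (chr2L:18676999-18677220): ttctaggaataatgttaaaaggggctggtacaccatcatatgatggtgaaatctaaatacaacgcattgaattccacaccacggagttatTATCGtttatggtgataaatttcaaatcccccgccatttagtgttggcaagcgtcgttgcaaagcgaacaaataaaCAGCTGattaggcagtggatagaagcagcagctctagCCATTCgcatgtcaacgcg
CG14693 and TTLL15 (chr3R:10815048-10815287): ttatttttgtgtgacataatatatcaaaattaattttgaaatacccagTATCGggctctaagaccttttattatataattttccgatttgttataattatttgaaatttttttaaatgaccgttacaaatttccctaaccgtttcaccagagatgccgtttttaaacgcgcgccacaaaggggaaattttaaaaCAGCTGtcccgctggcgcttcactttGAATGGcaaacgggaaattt
In both runs CAGCTG and CCATTC lie at the right-hand end, near the start of the plus-strand gene. Within 50 bp of the summit, 19 of the 68 members with CCATTC also had CAGCTG, beside 139 of all 589 members. The 2 runs are thus examples and do not show that these words go together. The summit was base 193 of 222 for Mst36Fa and CG31751, 30 bp before the CG31751 start, and base 213 of 240 for CG14693 and TTLL15, 28 bp before the start of TTLL15, a tubulin tyrosine ligase-like gene.

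The strongest member lay at 2L position 544698, between Spp and nAChRbeta3, and scored 884, the second highest of all 10950 summits. Spp encodes signal peptide peptidase, a protease of the endoplasmic reticulum membrane, and nAChRbeta3 a subunit of a nicotinic acetylcholine receptor. The summit was 45 bp upstream of the Spp start and 431 bp from the nAChRbeta3 start, and it had no CCATTC within 50 bp. Mst36Fa and CG31751 scored 704 and Charon and CG4887 scored 703, in that case 35 bp inside the transcribed side of the Charon start. The summit of mRpS14, which encodes a small-subunit protein of the mitochondrial ribosome, and Naa15-16, a subunit of an N-terminal acetyltransferase, scored 667 and lay within 25 bp of both starts, which are 21 bp apart.

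The next members paired genes of many kinds of cell function. Ugt316A1 and Sfxn2, a UDP-glycosyltransferase and a sideroflexin, scored 656. NC2alpha, a subunit of the Negative Cofactor 2 repressor of transcription, scored 647, and its partner start is shared by PIG-M, CG42379, CG42380 and CG42381, so that this 1 summit counts for 4 gene pairs. The splicing factor gene SC35 and the translation release factor gene eRF3 shared a summit of 636, and Chro, which encodes the chromatin protein Chromator, and Ssl1, a subunit of the general transcription factor TFIIH, shared 1 of 625. The summit was 57 bp upstream of the start at eRF3, 15 bp upstream at NC2alpha and 12 bp past a start at Chro. The rule itself limits how far from a start a member can lie. CG14693 and TTLL15 scored 625, Gen, an XPG-like endonuclease gene, and Srp54k of the signal recognition particle 614, CG10383 and CG10338 589, and boca and Vps13, the second a lipid transfer protein gene, 586. The lowest members were CG32483 and RabX6 with 1.46, Nin and Bub1 (a centrosomal protein and a checkpoint kinase) with 1.43, and Kmn2 and CG2698 and CG1677 and CG2059 with 1.35 each, just above the threshold of the list, whose lowest score was 1.31.

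Members had higher scores than summits away from gene starts, and a somewhat higher median than other summits at gene starts. The 589 members had a median score of 34.5 (95% order-statistic interval 29.4 to 41.1), with quartiles of 12.5 and 92.9, against a median of 26.5 (23.7 to 29.9) and quartiles of 10.6 and 67.1 for the 1240 other summits within 50 bp of a start, so that the intervals of these medians overlap slightly. Summits 51 to 500 bp from a start had a median of 15.1 (3614 summits) and those over 500 bp away a median of 9.62 (5507 summits). The median member stood at percentile 76.4 of the whole list. Members made up 28 of the 100 highest summits (28.0%, 20.1 to 37.5) and 159 of the 1000 highest (15.9%, 13.8 to 18.3), compared with the 5.38% of all summits that they are. The 1240 other start summits were also frequent there, with 32 of the 100 highest and 259 of the 1000 highest. Seen as a share of each class, 4.75% (3.31 to 6.78) of members and 2.58% (1.83 to 3.62) of other start summits were among the 100 highest, with overlapping intervals, and 26.99% (23.6 to 30.7) and 20.9% (18.7 to 23.2) among the 1000 highest. A score of at least 20 was reached by 379 members (64.3%) and by 58.1% of the other start summits.

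Almost all members recurred in the list called against input. Within 100 bp, 561 of the 589 members (95.2%, 93.2 to 96.7) had a summit of that list, compared with 1178 of the 1240 other start summits (93.6% to 96.1%) and 82.2% (81.2 to 83.2) of summits over 500 bp from a start. The position was the same base for 399 of the 561 and within 5 bp for 546, and the largest shift was 21 bp. Scores in both lists gave a Spearman rho of 0.972 over the 561 members, but both lists were called from the same anti-Flag libraries, so this compares controls and is no replicate of the immunoprecipitation. The 28 members without an input summit had a median score of 10.9, and the highest of them was 1 of the summits of Not1 and Nt5c at 90.4. By the same position rule the list against input, with 12971 summits, held 611 head-to-head summits.

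Seen from the genes, 3815 of the 13945 protein-coding genes were in 1995 head-to-head pairs, and 620 pairs (31.1%, 29.1 to 33.1) had a summit. Overlapping pairs merge into 1882 intervals, of which 569 (30.2%) had a summit. Among gaps of the same length between genes in other orientations, 493 of 2870 tandem gaps (17.2%, 15.8 to 18.6) and 30 of 1658 convergent gaps (1.81%, 1.27 to 2.57) had a summit under the same margin. A tandem gap runs from the end of a gene to the start of the next on the same strand, a convergent gap joins the ends of a pair of genes, and gaps touching a head-to-head interval were left out. The median score of the best summit was 34.5 in head-to-head pairs, 35.0 in tandem gaps and 13.6 in convergent gaps.

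**Figure D1:**
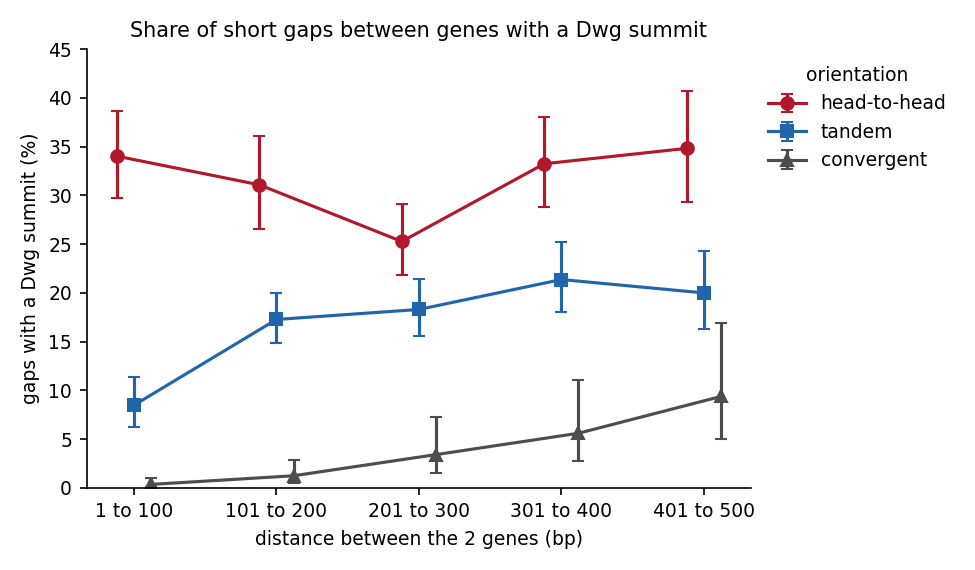
Share of gaps between neighbouring genes with a Dwg summit (vertical axis, percent) by the distance between the genes (horizontal axis, bp), for head-to-head, tandem and convergent gaps, with 95% Wilson intervals as bars. Head-to-head gaps stay between 25.3% and 34.8% in the 5 length classes, above tandem gaps with 8.48% to 21.4% and convergent gaps with 0.350% to 9.38%.

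The head-to-head share did not follow distance in order. It was 34.0% for starts up to 100 bp apart, 25.3% for 201 to 300 bp and 34.8% for 401 to 500 bp. The tandem share was 8.48% for gaps up to 100 bp and 76 of 380 for 401 to 500 bp, and the convergent share 0.350% and 9.38% in these classes. In the plot of share by distance the intervals of the head-to-head and tandem gaps do not overlap in any class.

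A head-to-head gap has a start at each side and a tandem gap at only 1, and counted per start the difference was much smaller. Of the 4343 distinct starts that bound head-to-head gaps, 580 (13.4%, 12.4 to 14.4) had a summit within 50 bp, compared with 372 of the 2999 starts that bound tandem gaps (12.4%, 11.3 to 13.6). For gaps of 201 to 500 bp the shares were 12.8% (11.7 to 14.03) and 13.6% (12.1 to 15.2). For gaps of 1 to 200 bp they were 14.5% (12.8 to 16.3) and 10.4% (8.88 to 12.2), and these intervals do not overlap. However, a summit near both starts of a head-to-head gap counted for each of them, which raises the head-to-head share. Within 50 bp of both starts lay 47 members, all in gaps of up to 100 bp. Whether the short gaps differ per start apart from such shared summits was not tested. The difference per gap was thus not seen per start in the longer gaps, and in the short gaps it was smaller per start than per gap.

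Over whole genes, 1940 of the 3815 paired genes (50.9%, 49.3 to 52.4) had a summit from 500 bp upstream to 50 bp downstream of a start, compared with 1872 of 10130 unpaired genes (18.5%, 17.7 to 19.2) and 27.3% of all protein-coding genes. With a score of at least 20 the shares were 30.3% and 10.5%, and 15.9% of all genes. In the list against input they were 53.7% and 20.6%, and 29.6% of all genes. The window of a paired gene also covers the start of its partner, which adds to these shares. Within 50 bp of the gene's own starts alone, 18.1% (16.9 to 19.3) of paired genes and 10.9% (10.3 to 11.5) of unpaired genes had a summit. Expression of the genes was not measured here, and its part in these shares was not tested.

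Members sat at the starts rather than midway between them. Of the 589 members, 362 (61.5%, 57.5 to 65.3) lay between the starts and 227 (38.5%) past one of them, which the rule limits to 50 bp. The median member was 10 bp upstream of the nearer start, with quartiles of 16 bp downstream and 32 bp upstream, and the farthest was 209 bp upstream. Within 50 bp of some annotated start lay 509 members (86.4%), with a median score of 34.5. The rule itself sets much of this share. Members past a start, and members between starts up to 100 bp apart, cannot lie farther than 50 bp from a start. Placement at the starts rather than midway is therefore read from intervals longer than 200 bp. The 80 members farther than 50 bp from a start had a median of 42.1 (24.6 to 60.6), so the median score was not lower away from the starts, within overlapping intervals. In intervals longer than 200 bp, cut into 5 equal stretches from the minus-strand gene to the plus-strand gene, 94, 16, 9, 19 and 103 summits lay in the successive stretches. The 47 members within 50 bp of both starts had a median score of 48.0 (34.0 to 77.5), an interval that overlaps that of all members.

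**Figure D2:**
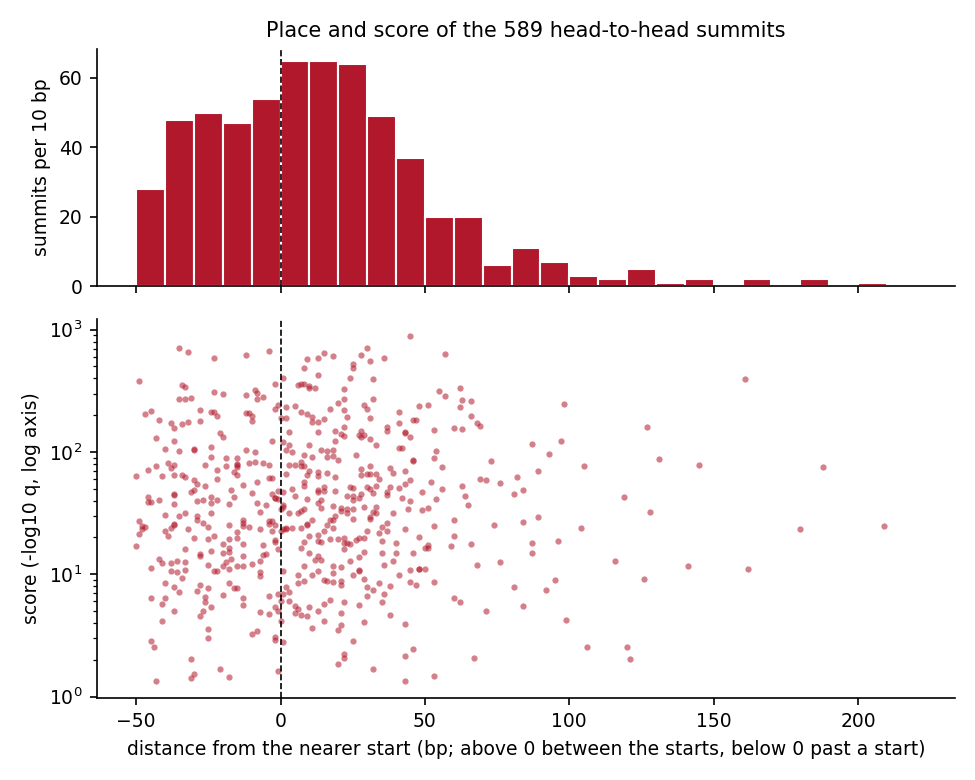
Upper panel, number of members per 10 bp, and lower panel, score of each member (log axis, −log10 q against the IgG control), both by distance from the nearer start in bp, where values above 0 are between the starts and values below 0 past a start; the margin of the rule ends the plot at 50 bp past a start. The 589 members gather within 50 bp of a start, and scores from 1.35 to 884 occur there.

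A pair of summits in 1 gene pair was rare: 598 pairs had 1 summit and 22 had 2, which was the most. Because a summit is the single highest base of a peak, a peak that spans both starts gives only 1 summit. How much of the rarity comes from this was not tested, so it is not a measure of binding at 1 start alone. In several of these the summits were unequal. Not1, the scaffold of the CCR4-NOT deadenylase, and Nt5c had summits of 273 and 90.4. The integrin gene if and mRpL22 had 207 and 14.2, and Dg (dystroglycan) and mRpL34 had 47.7 and 8.75. In these examples the weaker summit lay at the other gene's start.

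Short words were compared in windows of 101 bp centred on the summits, on both strands. Of all 2080 words of 6 letters counted with their reverse complements, CCATTC had the largest difference in share between the top and the bottom score bin of members. It was present in 48 of 147 top-bin members (32.7%, 25.6 to 40.6) and in 4.76%, 3.38% and 5.44% of the lower bins, values that chose the word and are given as a description. Other start summits took no part in that choice, and there the shares were 13.9% (10.5 to 18.2) in the top bin and 6.13%, 6.45% and 2.58% below. Split by the same score limits, 27 of 39 members of at least 300 had the word (69.2%, 53.6 to 81.4), compared with 20 of 54 other start summits (37.0%, 25.4 to 50.4). Between 100 and 300 the shares were 19.2% (12.8 to 27.8) and 9.88% (6.17 to 15.4), and below 50 they were at most 5.63% in both classes. All other summits of at least 300, near a start or not, had it in 37 of 111 (33.3%, 25.3 to 42.5). The choice of the word in members raises their shares in these comparisons but not those of the other classes.

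The 68 members with CCATTC had a median score of 217 and the 521 without it a median of 29.7, a difference that follows from how the word was chosen. The word was no condition for a member, since the strongest of all lacked it and 9 of the 210 members under 20 had it. Its centre was a median of 17.5 bp from the summit, and in 42 of the 68 members it was within 25 bp. It lay between the starts in 34 of the 68 and past a start in the rest. Windows of the same length around starts had it in 7.54% (6.15 to 9.22) for pairs with a summit, 3.73% (3.06 to 4.52) for pairs without and 5.09% for the outermost start of all protein-coding genes. Overlap of the word with other factors' sites was not tested, and a match is no evidence of which protein bound there.

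**Figure D3:**
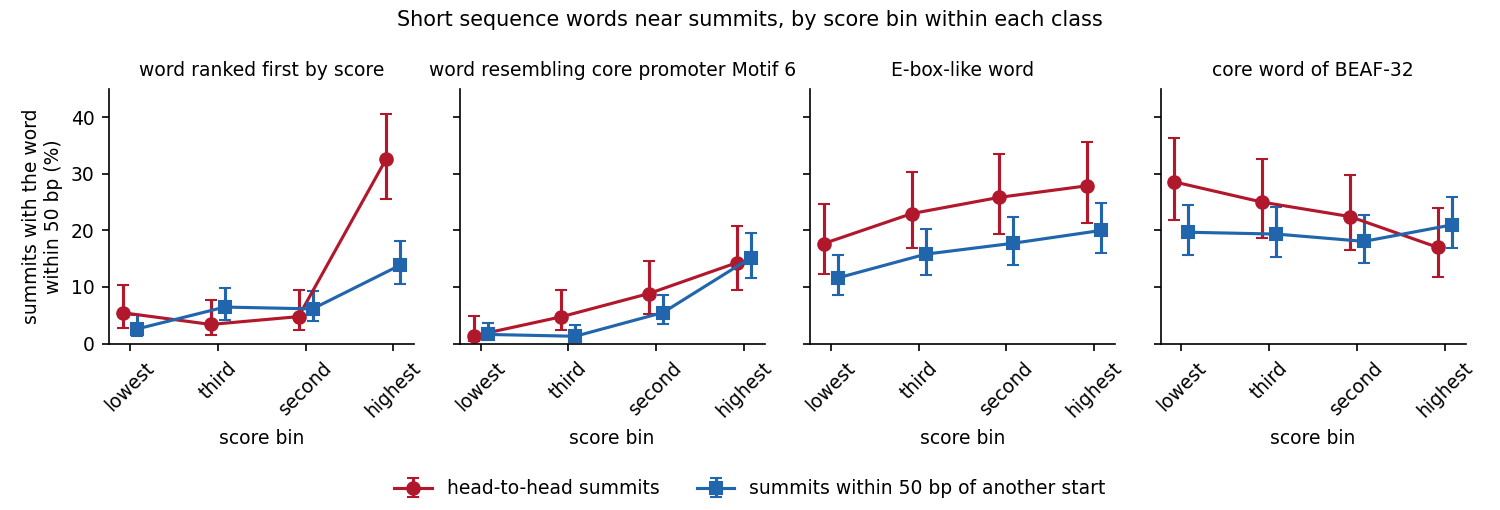
Share of summits with a short word within 50 bp (vertical axis, percent, 95% Wilson intervals) by score bin within each class (horizontal axis, lowest to highest), for head-to-head summits (circles) and for summits within 50 bp of another start (squares), in 4 panels from left to right for CCATTC, then AAAATACC, then CAGCTG and last CGATA. In the first panel the top head-to-head bin stands at 32.7% and its lower bins at 3.38% to 5.44%, and in the last panel the head-to-head share is lowest, 25 of 147, in the top bin.

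AAAATACC, which resembles the core promoter element Motif 6 and was also picked after the values were seen, followed the score more evenly. Its shares from the top to the bottom bin of members were 14.3%, 8.84%, 4.73% and 1.36%, and those of other start summits 15.2%, 5.48%, 1.29% and 1.61%. The 43 members with it had a median score of 90.4 (56.6 to 142), and none of them also had CCATTC. It was therefore shared with other start summits, as the plot of words by score bin shows, and was found at other members than CCATTC.

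The palindrome CAGCTG was the most frequent of the 6-letter words in members. It was present in 139 members (23.6%, 20.3 to 27.2), compared with 16.3% (14.3 to 18.4) of other start summits and 9.34% of all gene starts. TGGCAA, chosen because its excess in members over other start summits was the largest, was present in 21.9% and 13.2%. Its reverse complement TTGCCA is part of the extended word TTGCCATTC, so some sites can count for both, and their number was not determined. GGTCACACT, the core of Motif 1, to which the factor M1BP binds, was found in 9.68% (7.54 to 12.3) of members and 7.98% (6.60 to 9.63) of other start summits, against 4.37% of all starts. The initiator word TCAGTT was rarer in members, with 8.15% (6.20 to 10.6) compared with 14.8% (12.97 to 16.9), as was GAGAG, the word of GAGA factor, with 11.5% (9.21 to 14.4) compared with 17.3% (15.3 to 19.5). TATAAA was present in 3.06% of members, 5.08% of other start summits and 2369 of the 13945 outermost starts.

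CGATA, the word of BEAF-32, was present at 137 members (23.3%, 20.03 to 26.8), at 19.5% (17.4 to 21.8) of other start summits and at 25.8% of all gene starts. At the starts themselves it was less frequent in pairs with a summit (33.9%, 31.3 to 36.7) than in pairs without a summit (40.1%, 38.3 to 42.0). From the top to the bottom score bin of members its share was 25 of 147, 33 of 147, 37 of 148 and 42 of 147, with overlapping intervals from bin to bin. Members with CGATA had a median score of 23.7 (18.6 to 37.6) and those without it 38.6 (31.7 to 45.7). TATCGATA, bound by the replication-related factor DREF and containing CGATA, was found in 4.92% of members and 2.74% of other start summits. At starts it was found in 8.42% for pairs with a summit and 11.9% for pairs without, so both words were less frequent at starts of pairs with a summit.

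The gene pair that flanks scs' had a member, although the coordinates of the element itself were not used here. The starts of CG3281 and of aurA, which encodes the mitotic kinase Aurora A, are 319 bp apart, and their only summit within the margin of the rule lay at 3R position 11963155, 31 bp past the aurA start. It scored 276 against the IgG control, rank 181 of 10950, and 884 at the same base against input. A weaker summit of 31.1 lay outside the margin, 103 bp past the CG3281 start. The gene dwg was in no head-to-head pair.

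Among lists of genes set by symbol, cytosolic ribosomal protein genes had the highest share of bound pairs. Of 86 such genes, 34 were in a head-to-head pair and 23 of these (67.6%, 50.8 to 80.9) had a summit in the pair, compared with 1173 of all 3815 paired genes (30.7%, 29.3 to 32.2). The best scores of these 23 genes ran from 11.4 to 549.6, and 18 were at least 20. Counted over pairs, the median best score was 45.04 for pairs with such a gene, against 34.5 for all pairs with a summit. The highest were RpS20 with CG17271 at 549.6, RpS18 with plu at 266, RpS16 with CG4294 at 237 and RpLP0 with CG7130 at 192. A summit within 50 bp of the ribosomal gene's own start was present for 15 of the 23. In the case of RpS20 the summit was 31 bp upstream of CG17271 and 302 bp from RpS20. None of the 25 summits of this list had CCATTC within 50 bp.

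**Figure D4:**
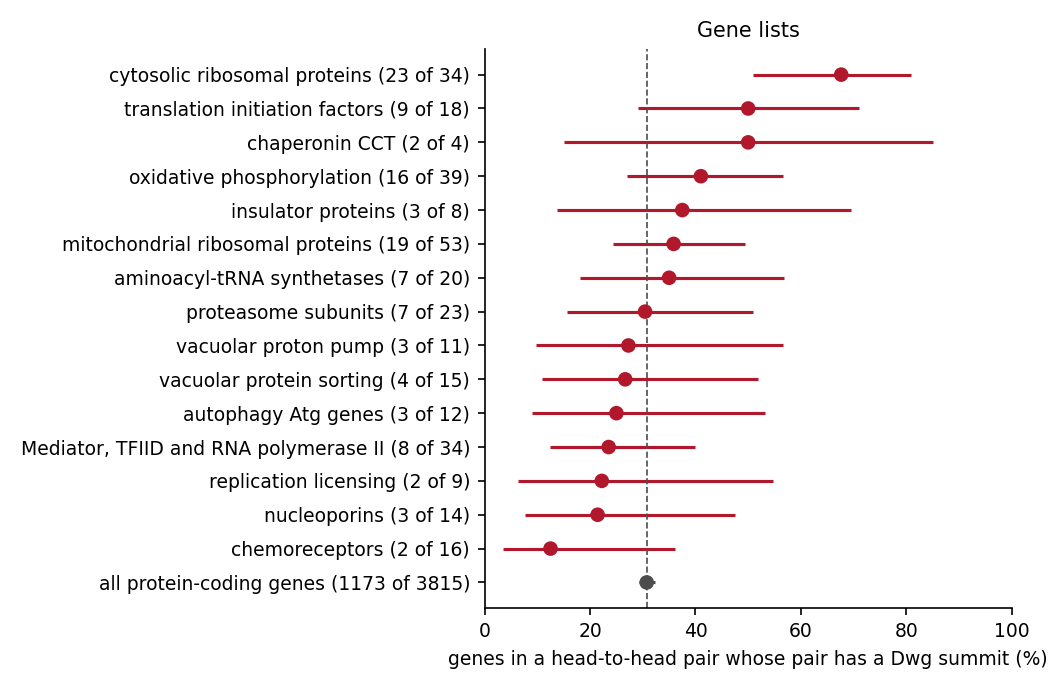
Share of genes in a head-to-head pair whose pair has a Dwg summit (horizontal axis, percent) for 15 gene lists with at least 4 paired genes (red) and all protein-coding genes (grey, dashed line at 30.7%), with 95% Wilson intervals; numbers in brackets are bound and paired genes. Cytosolic ribosomal protein genes stand at 67.6% with an interval above the dashed line, and the intervals of the other lists shown cross it.

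Every other list had an interval that included the share of all paired genes. Mitochondrial ribosomal protein genes were the most often paired, 53 of 73 (72.6%), and 19 of the 53 (35.8%, 24.3 to 49.3) had a summit; the highest were mRpS14 at 667 and mRpS11 with the nucleostemin gene Ns1 at 354. Oxidative phosphorylation genes had 16 of 39 (41.0%), led by ATPsynbeta with CG11076 at 237 and ATPsyngamma with yata at 175. Translation initiation factors had 9 of 18, with eIF3b and Patronin at 377 and eIF3l and Nrx-IV at 209.8.

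The remaining lists held fewer bound pairs. Aminoacyl-tRNA synthetase genes had 7 of 20, with the mitochondrial enzymes AlaRS-m, paired with the fat storage gene Fitm, at 581 and TyrRS-m, paired with CG3589, at 487. Proteasome subunits had 7 of 23 (30.4%), the highest being the ATPase subunit Rpt4 with mldr at 122. Subunits of Mediator, TFIID and RNA polymerase II had 8 of 34 (23.5%), with MED27 and elm at 296 and Polr2A, the largest subunit of RNA polymerase II, with CG11699 at 184, while the pair Taf10b and Taf10, both of this list, had no summit within the margin of the rule and 1 of 14.6 at 128 bp past the Taf10b start. Replication licensing genes had 2 of 9, Mcm6 with CG3198 at 222 and Psf1 with Sac1 at 77.4. Vacuolar protein sorting genes had 4 of 15, with Vps4 and CG7772 at 177 after Vps13, the vacuolar proton pump 3 of 11, with Vha14-1 and CG30091 at 189, nucleoporins 3 of 14, with Nup44A and ACC at 127, and the chaperonin CCT 2 of 4, CCT4 with CG6153 at 241 and CCT7 with Pif1B at 10.8.

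Cuticle protein and chemoreceptor genes were less often paired than the 27.4% of all protein-coding genes. Of 70 Cpr cuticle protein genes 1 was in a head-to-head pair, with no summit by this rule, and of 179 chemoreceptor genes 16 (8.94%, 5.58 to 14.03) were paired and 2 had a summit, Gr94a with p53 at 24.9 and Gr97a with CG5521 at 8.97. Both lay nearer to the partner, 209 bp upstream of p53 and 15 bp upstream of CG5521. The chemoreceptor pairs Gr58b with Gr58a and Gr59e with Gr59f had none by this rule.

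Of 20 autophagy genes named Atg, which act in the formation of autophagosomes, 12 were in head-to-head pairs and 3 of these (interval 8.89% to 53.2%) had a summit. Atg4b, a protease that processes Atg8, paired with Hibch, had a summit of 64.8 that was 9 bp upstream of the Hibch start. Atg3, the conjugating enzyme for Atg8, paired with Nufip, had a summit of 38.0, 13 bp upstream of its own start and rank 2340, with no summit of the list against input within 100 bp. Another summit of 42.1 lay outside the margin, 135 bp past the Nufip start. The list against input had a summit of 80.7 at 136 bp past that start. Atg2, a lipid transfer protein gene, paired with CG12093, had a summit of 31.7, 6 bp upstream of its start. The pairs of Atg5, Atg6, Atg7, Atg8a, Atg9, Atg10, Atg12, Atg17 and Atg18a had no summit by this rule, but some had summits outside the margin. At Atg6 and Pisd a summit of 127 lay 139 bp past the Pisd start. At ERR and Atg18a a summit of 63.6 lay 192 bp past the ERR start. Xe7 and Atg17 had 21.5 at 127 bp past the Atg17 start, and Atg5 and Dok 11.0 at 63 bp past the Dok start. For CG7747 and Atg9 a summit of 4.03 lay 282 bp past the CG7747 start. None of the 3 summits within the margin had CCATTC, and the interval of the share includes the 30.7% of all paired genes.

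Of 16 genes for insulator proteins and their partners 8 were in head-to-head pairs, and 3 pairs had a summit. Chro, as above, had the highest, and pzg, which encodes putzig, with CG12974 had 58.9 at 45 bp upstream of the CG12974 start. The summit of l(3)mbt and CG5934 scored 19.6 and was 15 bp past the CG5934 start. Only the summit of Chro was thus at the start of the insulator gene itself. The pairs of M1BP, su(Hw) and Cp190 and the pair Ibf2 and Ibf1, in which both genes are of this list, had no summit within the margin of the rule but had summits outside it. At M1BP and CG8202 these scored 443, at 88 bp past the M1BP start, and 145, at 77 bp past the CG8202 start. Past the starts by 106 bp or more lay summits of 57.5 and 8.59 at Cp190 and CG4338, of 18.3 and 14.8 at Ibf2 and Ibf1, and of 14.5 and 11.0 at su(Hw) and Polr2I.

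The chromosome arms were alike in the share of pairs with a summit. It was 27.6% (23.4 to 32.2) on 2L, 34.0% (29.4 to 38.9) on 2R, 30.4% on 3L, 31.9% on 3R and 31.5% on X, with overlapping intervals, and 2 of 7 pairs on chromosome 4 had one. Median member scores were 28.8 on 3R and 40.7 on 2R, the lowest and the highest among the large arms. The GC content of the windows was 49.96% for members, 51.1% for other start summits and 52.6% for all other summits.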

How the data were processed

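Chromatin of S2R+ cells expressing Flag-Dwg was immunoprecipitated with anti-Flag or IgG control antibody and sequenced beside input. Per the study's methods and the labels, reads were trimmed with Trim Galore 0.6.4, mapped to dm6 with Bowtie2 2.3.5.1 in local mode, filtered for unique reads with SAMtools 1.6, and peaks were called with MACS2 2.2.6 on read pairs and annotated with HOMER 4.11. How replicates were combined is not given in the sources used here. The score in the deposited summit lists is the −log10 q-value of MACS2; it grows with sequencing depth and is not a level of occupancy. Such scores were used for ranks and medians only, and lists against different controls were not set on a common scale.

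Gene starts were all starts of protein-coding transcripts on 6 chromosome arms in Ensembl release 115, and bases came from the RefSeq assembly of dm6. Head-to-head, tandem and convergent gaps, gene lists matched by symbol pattern, and words within 50 bp of summits were counted in Python 3.11.15 (pandas 2.3.3 for tables, NumPy 2.4.6 for positions, SciPy 1.17.1 for intervals). Shares carry 95% Wilson intervals and medians 95% order-statistic intervals. No significance test was run, because no value per library was used and summits are not replicates. The gap functions were tested on simulated data. The members and the gene lists were chosen with earlier results of these data known. The pairs named are those of the 12 highest and 4 lowest members, CG3281 and aurA, every Atg and insulator protein pair, pairs with both genes in 1 list, pairs with most summits and the 2 highest pairs of each list; the words CCATTC and AAAATACC, the word TGGCAA, and pairs shown only for their CCATTC site were picked after their values were seen. Alternatives were other score limits, the list against input, summits shared by both lists, other distances, margins and windows, and outermost starts only. Sequences and flanking bases on 2R were not used. A few pairs that these rules name are not reported here.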

Additional observations from a re-analysis of the deposited data

How the results depend on the processing

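The 102 alternative values of the main results include those for CCATTC, a word picked after the data were seen. Of all 102, 57 stayed within the 95% interval of the main value or 1.5 times the count, 12 moved up and 33 down. Counted per gap, the order head-to-head over tandem over convergent held under each of these alternatives. Counted per start, gaps of 201 to 500 bp had 12.8% for head-to-head and 13.6% for tandem gaps. With scores of at least 5, 10 and 20, the share of head-to-head pairs with a summit was 28.8%, 24.6% and 19.8%, and that of tandem gaps 15.8%, 13.9% and 11.1%. Convergent gaps had 1.09% and 0.543% at limits of 10 and 20, where the median percentile of members was 71.5 and 68.3 and the share of members with an input summit 96.8% and 97.9%. At 20, 379 members were left. With summits shared by both lists, 29.1% of head-to-head pairs had a summit.

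With starts up to 200, 300 and 1000 bp apart, 189, 323 and 960 summits were members and 26.3%, 26.2% and 35.7% of head-to-head pairs had a summit. Tandem gaps had 11.8% and 14.2% at 200 and 300 bp, and convergent gaps 0.396%, 0.696% and 6.505% at 200, 300 and 1000 bp. At 200 bp, 96.8% of members had an input summit, 91.5% were within 50 bp of a start and 29.6% had CGATA. At 1000 bp, 76.2% were within 50 bp of a start. With a margin of 0 bp there were 378 members, 19.5% of head-to-head pairs and 11.3% of tandem gaps had a summit, and 78.8% of members were within 50 bp of a start. With a margin of 100 bp, 39.4% of pairs and 21.4% of tandem gaps had one, the median percentile was 72.0, 65.5% of members were within 50 bp of a start and 19.4% had CGATA. With outermost starts only, 26.02% of pairs and 15.8% of tandem gaps had a summit. CGATA was within 25 bp of 12.4% of members and within 100 bp of 41.9%.

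In alternatives chosen after seeing the data, CCATTC was within 25 bp of 19.7% of top-bin members and 2.04% of the others, and within 100 bp of 37.4% and 7.24%. Of 174 alternative values of the gene lists 19 moved, among them the cytosolic ribosomal protein share, 7 of 14 with starts up to 200 bp apart. The cause of these changes was not tested, and the alternatives also change how many summits or pairs are counted. No paired analysis was possible because libraries have no values of their own in either list. For the same reason no library could be left out, and depth and background per library are unknown.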
